A study of Rattus norvegicus with 6 samples.

Results

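The 10 genes described here handle phosphate and vitamin D in the kidney: the sodium-phosphate carriers Slc34a1, Slc34a3, Slc20a1 and Slc20a2, the genes Kl, Fgfr1 and Galnt3 of the phosphate hormone FGF23, and the vitamin D genes Cyp27b1, Cyp24a1 and Vdr. They were chosen by name, and every probe whose RefSeq accession maps to them was used. All 10 were measured, by 21 probes, among 11530 genes tested. Each of 6 arrays measured the renal cortical RNA of 1 male rat of the outbred Sprague-Dawley stock, bought at 5 weeks of age. The 3 control rats were given water and the other 3 ethylenediamine dihydrochloride, the salt of a small diamine, at 500 mg/kg/day, both for 4 weeks, so the comparison asks how this compound alters cortical transcripts.

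The kidney sets the body's phosphate balance in the proximal tubule, where sodium-coupled carriers of the brush border take filtered phosphate back into the cell. FGF23 is secreted by bone, binds a fibroblast growth factor receptor together with the co-receptor Klotho, and lowers both phosphate uptake and the synthesis of active vitamin D. Active vitamin D is made by the enzyme encoded by Cyp27b1, is broken down by the one encoded by Cyp24a1, and acts through the nuclear receptor Vdr, of which Cyp24a1 is a classic target.

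Galnt3 was the member with the lowest ethylenediamine signal relative to water, with a ratio of 0.451. Kl was 0.868 of its water level. Both genes were lower on all 3 ethylenediamine arrays than on any water array. The phosphate carriers, Fgfr1 and Vdr differed by less than 0.15 on the log2 scale, and Cyp24a1 and Cyp27b1 each varied mainly through 1 animal. By limma, 0 of the 10 genes passed an adjusted p of 0.05, as did 0 of all 11530 genes (0.00%). At an unadjusted p under 0.05 there was 1 member, Galnt3, against 10.4% of all genes (5.03% lower and 5.37% higher). The groups did not overlap for 2 members, both lower, against 17.6% of all genes (8.39% lower). The members' counts are near these background shares and are no result about the members as a group.

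The start regions were searched for common promoter letters and for the hexamer that nuclear receptors such as Vdr bind. Of the 10 genes, 6 had an entry in the RefSeq promoter table (build GRCr8), which is not the build of the array. Slc20a1, Slc20a2, Fgfr1 and Cyp24a1 had none. The Galnt3 window lay 12998 bases inside the outermost end of its gene and is not shown. The 250 bases before the start site are given for the proximal carriers, the FGF23 co-receptor and the vitamin D-activating enzyme, with matches in capitals to the receptor hexamer AGGTCA, its variant GGTTCA, its variant AGTTCA, the GC box GGGCGG and the TATA box TATAAA, on either strand.
Slc34a1, chr17:9238984-9239233, minus strand: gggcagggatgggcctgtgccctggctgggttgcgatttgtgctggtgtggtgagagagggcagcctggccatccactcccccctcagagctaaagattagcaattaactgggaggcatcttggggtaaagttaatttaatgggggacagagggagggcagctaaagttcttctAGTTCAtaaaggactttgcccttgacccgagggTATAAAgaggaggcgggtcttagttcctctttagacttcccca
Slc34a3, chr3:28447998-28448247, minus strand: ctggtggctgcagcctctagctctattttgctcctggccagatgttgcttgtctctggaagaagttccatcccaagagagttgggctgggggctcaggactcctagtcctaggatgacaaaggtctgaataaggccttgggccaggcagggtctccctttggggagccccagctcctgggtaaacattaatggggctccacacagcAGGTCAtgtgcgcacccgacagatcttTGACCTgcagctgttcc
Kl, chr12:5325753-5326002, plus strand: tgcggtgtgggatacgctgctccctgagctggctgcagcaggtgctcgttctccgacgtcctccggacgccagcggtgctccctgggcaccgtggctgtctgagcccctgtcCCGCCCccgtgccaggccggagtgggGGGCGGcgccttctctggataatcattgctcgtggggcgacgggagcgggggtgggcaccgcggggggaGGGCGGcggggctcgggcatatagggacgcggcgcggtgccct
Cyp27b1, chr7:64756376-64756625, plus strand: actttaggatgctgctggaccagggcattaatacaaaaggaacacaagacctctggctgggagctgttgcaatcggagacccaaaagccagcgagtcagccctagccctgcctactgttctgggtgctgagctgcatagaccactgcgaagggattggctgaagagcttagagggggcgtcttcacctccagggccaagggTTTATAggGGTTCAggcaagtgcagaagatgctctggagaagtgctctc
A hexamer began 76 bases before the start site of Slc34a1 and 41 bases before that of Cyp27b1, and the Slc34a3 window held 1 on each strand, at 44 and 17 bases. The Kl window held 3 GC boxes and no hexamer or TATA box. Of the 6 member windows, 4 (Slc34a1, Slc34a3, Cyp27b1 and Vdr) held a hexamer, against 31.3% of all 33469 windows of this length. The Kl and Galnt3 windows held none. A GC box was in 30.5% of all windows and TATAAA in 12.9%. The repeat of AGGTCA with a gap of any 3 bases was in 0 member windows and in 0.0209% of all. These are matches of letters and say nothing of binding.

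Signals below are on the log2 scale after subtracting each array's 75th percentile, for the brightest probe of a gene unless another is named. Differences are ethylenediamine minus water, with the standard error (SE) of limma's moderated fit and n = 3 per group. Levels of different genes are not compared, since probes differ in brightness. The arrays came from 2 slides, scanned separately. All water arrays shared slide 1 with the first ethylenediamine replicate, and the other 2 treated replicates were alone on slide 2, so each value given for slide 1 rests on 1 treated animal. Between 35691 and 40843 probes per array were well above background, the fewest on ethylenediamine replicate 1. All 16 proximal tubule markers were measured, with a summed signal of 1870 to 1950 times the array's 75th percentile in water and 1860 to 1900 in ethylenediamine. The 6 genes listed as markers of medulla and papilla were measured too, at 160 to 173 and 156 to 163. Nearly all of that sum came from Fxyd2, so the sum is no measure of medullary tissue. Sums over different probes cannot tell how clean the dissection was.

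The phosphate carriers stayed close to their water levels. Slc34a1, the main brush border phosphate carrier of the proximal tubule, read 8.29, 8.19 and 8.18 on water replicates 1 to 3 and 8.17, 8.27 and 8.22 on ethylenediamine replicates 1 to 3. The groups overlapped over most of their range, with ethylenediamine replicate 1 the lowest array and water replicate 1 the highest. The difference was 0.00 ± 0.06, with a 95% interval of -0.15 to 0.15, and its sign turned with the scaling (-0.03 under both median and quantile scaling). The dimmer Slc34a1 probe read 7.06, 7.05 and 7.02 in water and 7.01, 6.90 and 7.01 in ethylenediamine, a difference of -0.07 ± 0.06. Its groups did not overlap, but by a gap smaller than the spread within the ethylenediamine group.

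Slc34a3, the other proximal brush border carrier of the same family, read 5.30, 5.15 and 5.12 in water and 5.25, 5.05 and 5.09 in ethylenediamine. The difference was -0.06 ± 0.08 (95% interval -0.26 to 0.14), and on slide 1 it was 0.06. Water replicate 1 and ethylenediamine replicate 1 were the highest arrays of their groups, as they were for Slc20a2. No change of Slc34a3 was detectable with these arrays.

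Slc20a1 and Slc20a2 encode the broadly expressed carriers PiT-1 and PiT-2. Slc20a1 read 0.93, 1.31 and 1.01 in water and 1.32, 1.25 and 0.96 in ethylenediamine, a difference of 0.10 ± 0.14 (95% interval -0.25 to 0.44). In each group at least 1 array stood near 1.3 and 1 near the low end, so the groups shared the same range. Its dimmer probe gave 0.05 ± 0.16. Slc20a2 read 3.24, 3.06 and 3.03 in water and 3.17, 3.00 and 2.93 in ethylenediamine. The difference was -0.08 ± 0.09 (95% interval -0.31 to 0.15), and its 3 dimmer probes gave -0.15 ± 0.12, -0.12 ± 0.14 and -0.11 ± 0.09. All 4 Slc20a2 probes thus leaned the same way by less than their error allows to be called, and on slide 1 the brightest read 0.06 higher.

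**Figure D1:**
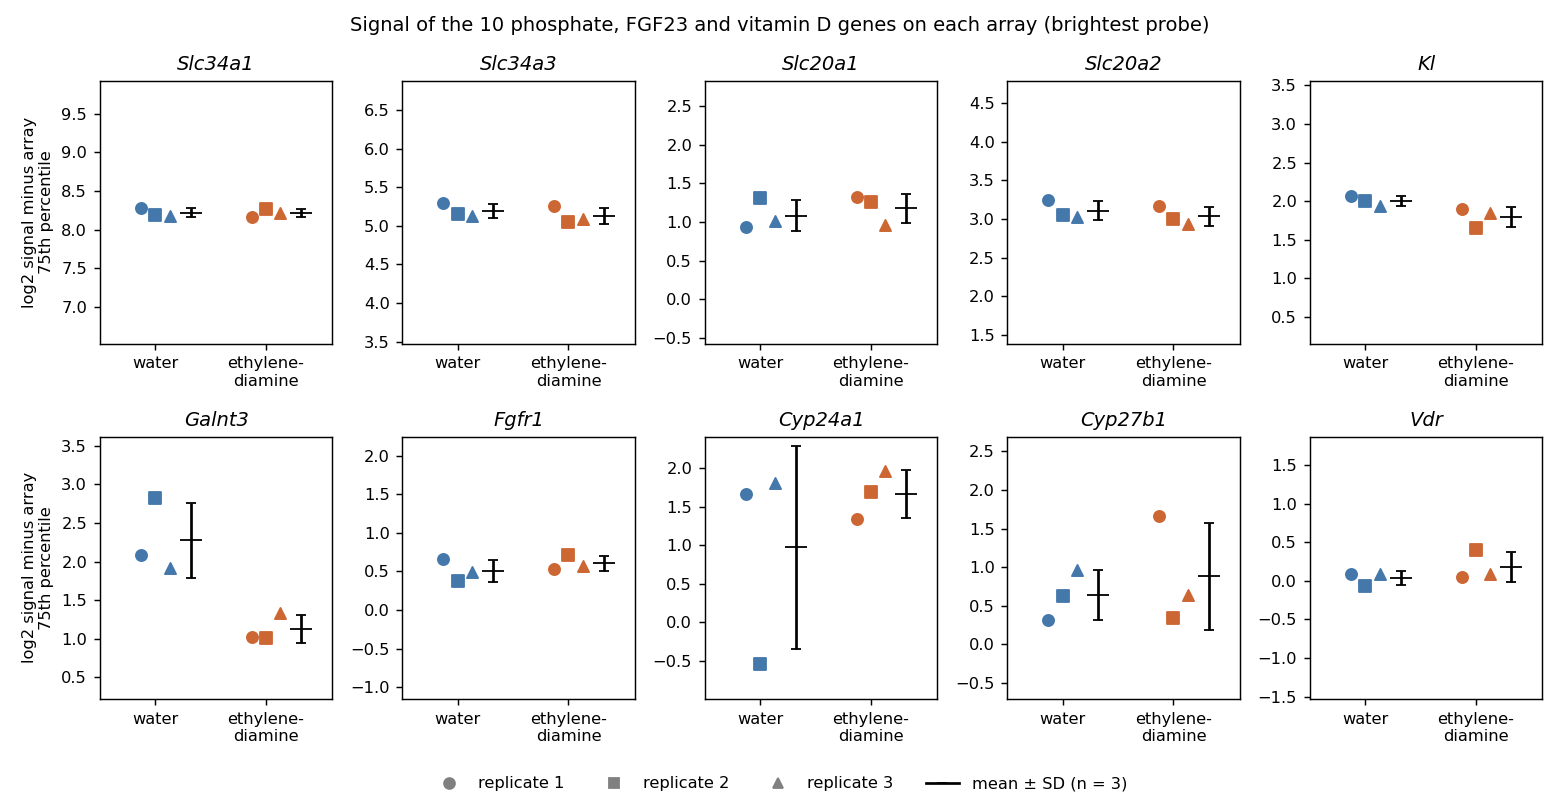
Log2 signal minus the array's 75th percentile (vertical axis, each panel spanning the same log2 range) of the 10 genes on each array, with water in blue and ethylenediamine in orange, marker shapes for the replicate number and black bars for the mean ± SD (n = 3). The groups are apart for Galnt3 and Kl, while water replicate 2 is far below the other arrays for Cyp24a1 and ethylenediamine replicate 1 above them for Cyp27b1.

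Among the FGF23 genes, Galnt3 encodes a glycosyltransferase that adds sugars to FGF23 in bone and so protects the hormone from cleavage. Its brightest probe read 2.08, 2.82 and 1.92 on water replicates 1 to 3 and 1.03, 1.01 and 1.34 on ethylenediamine replicates 1 to 3. Every ethylenediamine array lay below the lowest water array. The gap between the groups was wider than the spread among the ethylenediamine arrays and narrower than that among the water arrays. The mean was 2.27 ± 0.48 (SD, n = 3) in water, where replicate 2 stood highest, and 1.12 ± 0.18 (SD, n = 3) in ethylenediamine. The difference was -1.15 ± 0.25 with a 95% interval of -1.77 to -0.53 (limma, unadjusted p = 0.00407, adjusted p = 0.328). It placed Galnt3 at position 22 from the lowest among the differences of 11530 genes.

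The second Galnt3 probe, far dimmer, read -3.02, -2.53 and -3.44 in water and -4.77, -4.44 and -3.79 in ethylenediamine. On ethylenediamine replicate 1 this probe was not well above background, so 2 of 3 treated arrays measured it. The lowest signal well above background on that array was -4.45. The probe passed the filter through the water group alone, so its lower signal in ethylenediamine is a description and no second test. The brightest probe was well above background on all 6 arrays.

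The Galnt3 difference did not rest on 1 array. Without water replicate 2, its highest array, it was -0.87 ± 0.13, with an unadjusted p of 0.00128 and an adjusted p of 0.386. On slide 1 alone it was -1.25, from ethylenediamine replicate 1 against the 3 water arrays. Over 19 alternatives it ran from -1.33 to -0.87, with an unadjusted p between 0.00128 and 0.0408 and an adjusted p between 0.269 and 0.571. No alternative brought it past the adjusted threshold.

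Kl encodes Klotho, the FGF23 co-receptor, made mainly in the distal convoluted tubule. Its brightest probe read 2.06, 2.00 and 1.93 in water and 1.89, 1.65 and 1.84 in ethylenediamine. The groups did not overlap, although the highest ethylenediamine array stood only just under the lowest water array. The difference was -0.20 ± 0.08 with a 95% interval of -0.41 to 0.00 (limma, unadjusted p = 0.05003, adjusted p = 0.481). The second Kl probe read 1.89, 1.79 and 1.73 in water and 1.69, 1.47 and 1.62 in ethylenediamine, a difference of -0.21 ± 0.08 with an unadjusted p of 0.0439. Both probes ordered the 6 arrays in the same way. On slide 1 the difference of the brightest probe was smaller, at -0.11, and without ethylenediamine replicate 2, the lowest array, it was -0.13.

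Some markers of several cell types, among them the tubule segments around Klotho's site, were lower beside Kl and Galnt3. Of 9 distal convoluted and connecting tubule markers, 6 were tested, with a median difference of -0.38 and 3 lower at an unadjusted p under 0.05 (Calb1, Trpv5 and Slc8a1), where 5.03% of all genes were. The other 3 did not pass: Slc12a3, the thiazide-sensitive salt carrier that defines the segment, stood at -0.35 ± 0.17, Klk1 at 0.21 ± 0.12 and Wnk4 at 0.04 ± 0.12. Their summed signal was 168 to 192 times the 75th percentile in water and 164 to 221 in ethylenediamine, so the groups overlapped. All 6 thick limb markers were tested and none passed that p, with a median of -0.04. Of 16 proximal tubule markers, 3 were lower at that p (Slc5a12, Slc5a1 and Slc27a2) and 0 higher, with a median of -0.02. In all, 9 of the 16 differences were negative and 7 positive. Slc7a13 stood at 1.18 ± 0.94. It read 2.87, 2.99 and 3.90 in water and 2.26, 5.27 and 5.75 in ethylenediamine, so the slide 2 arrays were the high ones. Slc22a7 was also highest on those 2 arrays. That gene was well above background on 2 of 3 ethylenediamine arrays and passed the filter through the water group alone, so its difference is not given. Of 5 endothelial markers tested, 1 was lower at that p, Tek, with a median of -0.11. Of 6 podocyte markers 0 passed it, with a median of -0.08. Of 12 collecting duct markers 11 were tested, all 11 with a negative difference, as 51.2% of all genes had, and 3 of them lower at that p (Aqp2, Atp6v0d2 and Slc26a4). Their median was -0.18, and their sum was 311 to 374 in water and 238 to 288 in ethylenediamine. The distal and collecting duct lists stood nearer to water on slide 1, where their medians for ethylenediamine replicate 1 were -0.13 and -0.02. Of 7 fibroblast and smooth muscle markers, 4 were higher at an unadjusted p under 0.05 (Col1a1, Acta2, Tagln and Myh11), where 5.37% of all genes were, and Col3a1 stood at -0.20 ± 0.22. The list had a sum of 33.7 to 47.5 in water and 43.4 to 59.1 in ethylenediamine. The part of these shifts in the Kl and Galnt3 values was not tested. In whole cortex, fewer cells of a type and less RNA per cell cannot be told apart.

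Fgfr1 encodes the receptor that pairs with Klotho. It read 0.66, 0.38 and 0.49 in water and 0.53, 0.72 and 0.57 in ethylenediamine, a difference of 0.10 ± 0.09 (95% interval -0.14 to 0.33). Its other probes gave 0.12 ± 0.13 and 0.13 ± 0.10. The 3 Fgfr1 probes leaned higher, but the water arrays alone covered most of the range.

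**Figure D2:**
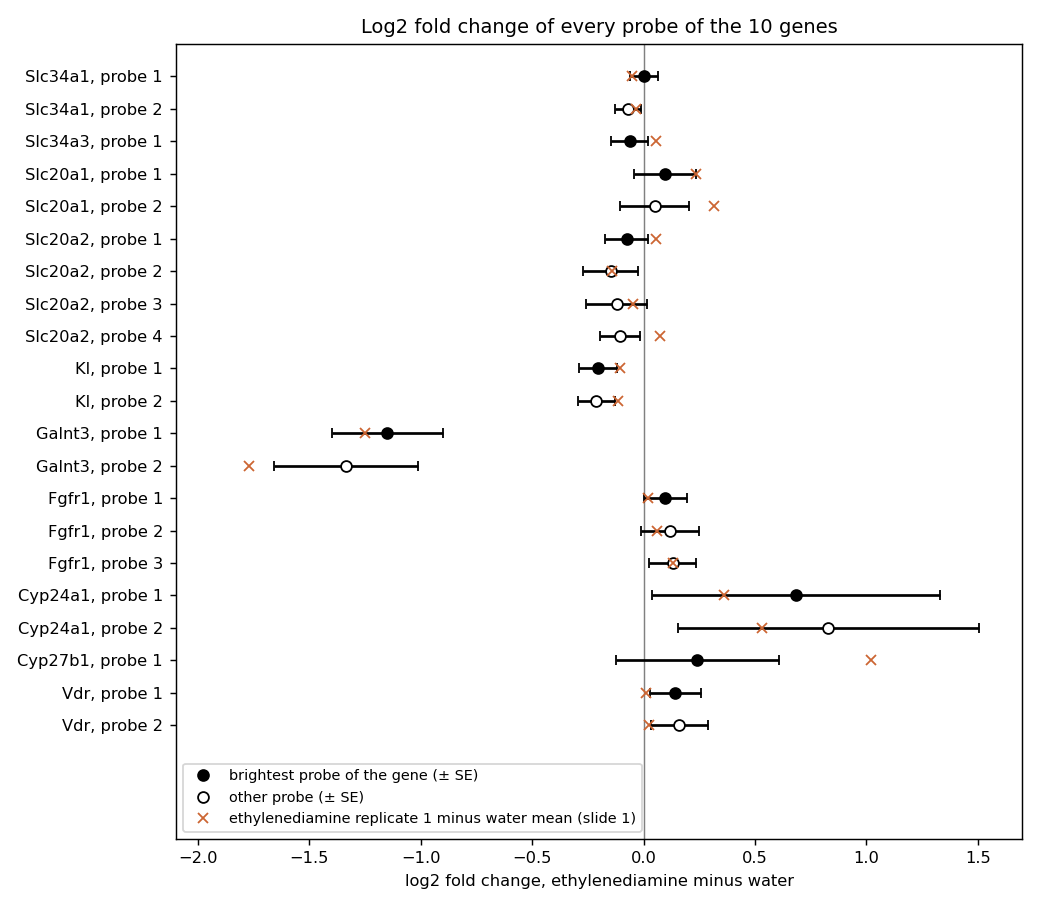
Log2 fold change, ethylenediamine minus water (horizontal axis), of each of the 21 probes of the 10 genes, numbered from brightest to dimmest within a gene, with filled circles for the brightest probe, open circles for the others, bars for ± SE (n = 3 per group) and orange crosses for ethylenediamine replicate 1 minus the water mean. Both Galnt3 probes lie below -1 (the dimmer one measured on 2 of 3 ethylenediamine arrays), both Kl probes near -0.2, and the probes of each gene lie within about 1 SE of each other.

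The vitamin D enzymes varied more between animals than between groups. Cyp24a1, which inactivates vitamin D, read 1.66, -0.54 and 1.81 on water replicates 1 to 3 and 1.34, 1.69 and 1.96 on ethylenediamine replicates 1 to 3. Water replicate 2 was the low array, and the other 5 fell within 1.34 to 1.96. The second Cyp24a1 probe read -0.40, -2.78 and -0.34 in water and -0.64, -0.33 and -0.06 in ethylenediamine, with the same array low. Its signal on water replicate 2 was 4.84-fold below the mean of the other water arrays by the brightest probe. Among 11530 genes the water SD of Cyp24a1, 1.32, was the 25th largest.

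The group difference of Cyp24a1, 0.68 ± 0.65 (95% interval -0.91 to 2.28; limma, unadjusted p = 0.333, adjusted p = 0.733), therefore turned on that 1 animal. Without water replicate 2 it was -0.07 ± 0.20. On slide 1 it was 0.36. On water replicate 2, 141 of 11530 genes lay over 1 log2 unit from the mean of the other 2 arrays of its group, against 121 and 109 for water replicates 1 and 3 and 257, 166 and 225 for ethylenediamine replicates 1 to 3. The part of the array in the low Cyp24a1 signal was not tested. The same animal had the highest Galnt3 signal of the 6, 1.77-fold above the mean of the other water arrays.

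Cyp27b1, the enzyme that activates vitamin D, read 0.32, 0.63 and 0.97 in water and 1.66, 0.34 and 0.64 in ethylenediamine. Ethylenediamine replicate 1 was the high array, 2.25-fold above the mean of the other treated arrays, which lay within the water range. The difference was 0.24 ± 0.37 (95% interval -0.67 to 1.15; limma, unadjusted p = 0.538, adjusted p = 0.838). On slide 1, where that array is the only treated one, it was 1.02, and without that array it was -0.15 ± 0.22. A single probe measured Cyp27b1, so no other probe checks the array.

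The orders of the animals by the enzymes differed. The animal highest in Cyp27b1 was the lowest of the treated group in Cyp24a1, but the animal lowest in Cyp24a1 had a middling Cyp27b1 signal of 0.63. Vdr, the receptor of active vitamin D, read 0.09, -0.07 and 0.09 in water and 0.05, 0.40 and 0.09 in ethylenediamine. Only ethylenediamine replicate 2 stood above the water range, and the difference was 0.14 ± 0.11 (95% interval -0.13 to 0.42). The dimmer Vdr probe gave 0.16 ± 0.13, and on slide 1 both stood within 0.03 of the water mean.

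**Figure D3:**
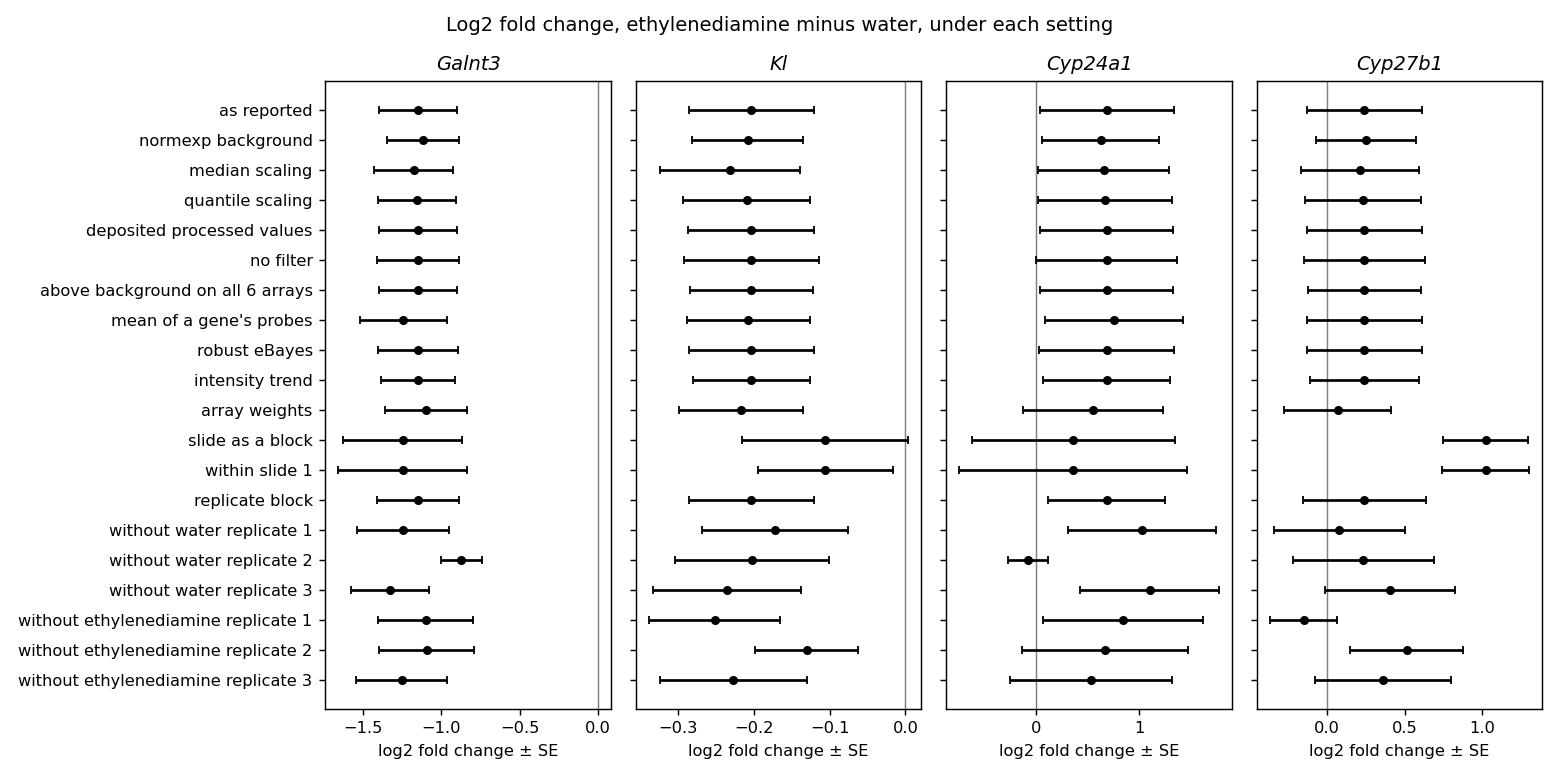
Log2 fold change ± SE, ethylenediamine minus water (horizontal axes, each with its own range), of Galnt3, Kl, Cyp24a1 and Cyp27b1 as reported and under 19 other settings (rows). Galnt3 stays between -1.33 and -0.87 and Kl between -0.25 and -0.11, while Cyp24a1 drops to -0.07 without water replicate 2 and Cyp27b1 to -0.15 without ethylenediamine replicate 1.

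Other genes of the same pathways were taken from lists, beside which the median difference over all genes was 0.00 and 10.4% of genes had an unadjusted p under 0.05. By limma 0 genes of these lists passed the adjusted threshold. Of 20 scaffolds and regulators of the phosphate carriers, 15 were tested, 13 of them with a negative difference, and 0 had an unadjusted p under 0.05 by limma (median -0.06). The pyrophosphate exporter gene Ankh stood at -0.10 ± 0.05 and the parathyroid hormone receptor Pth1r at -0.15 ± 0.09. The list medians on ethylenediamine replicates 1 to 3 were 0.03, -0.09 and -0.08, so slide 1 did not repeat the lean.

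Of 13 partners of FGF23, 9 were tested. The list had a median of -0.06, and by limma Bace1 and Adam17 were lower at an unadjusted p under 0.05. Among the proteases that can shed Klotho from the membrane, the list holds these and Adam10, which stood at -0.11 ± 0.16 with overlapping groups. Bace1 read -3.17, -4.68 and -3.69 in water and -5.47, -4.94 and -5.43 in ethylenediamine, and was well above background on only 1 of 3 treated arrays. It passed the filter through the water group, so its place in the count is no support for a change and its difference is not given. Adam17 read -1.31, -1.49 and -1.42 in water and -1.56, -1.59 and -1.61 in ethylenediamine, a difference of -0.18 ± 0.06 with no overlap of the groups. The Fgf23 probe was well above background on 0 of 6 arrays.

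Of 13 genes that fibroblast growth factor signalling induces, 8 were tested, with a median of -0.05. Spred1 and Spry2 were lower at an unadjusted p under 0.05, and Etv4 was higher. Spred1, an inhibitor of the Ras pathway, read -2.57, -2.45 and -2.48 in water and -2.81, -2.90 and -2.89 in ethylenediamine, a difference of -0.37 ± 0.06. Spry2, another inhibitor of growth factor signalling, stood at -0.28 ± 0.10, and the transcription factor gene Etv4 went the other way, at 0.29 ± 0.10. In each of the 3 the groups did not overlap.

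Of 16 genes of vitamin D uptake, transport and receptor function, 13 were tested, with a median of 0.07. At an unadjusted p under 0.05 the list held Lrp2 alone, which was lower. Lrp2 is the gene of megalin, the endocytic receptor that takes up filtered vitamin D with its carrier protein. It stood at -0.19 ± 0.06, and its dimmer probe at -0.13 ± 0.14. Gc, the vitamin D carrier protein, read -3.69, -4.26 and -3.80 in water and -4.04, -0.91 and -1.71 in ethylenediamine. The 2 arrays of slide 2 were the high ones, and the difference of 1.69 ± 0.79 had an unadjusted p of 0.0772.

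Of 10 targets of the vitamin D receptor, 9 were tested, with a median of -0.12. At an unadjusted p under 0.05, 3 were lower and 1, Spp1, was higher. The calcium-binding protein gene Calb1 and the calcium channel gene Trpv5, both of the distal tubule, stood at -0.89 ± 0.15 and -0.44 ± 0.13. The sodium-calcium exchanger gene Slc8a1 stood at -0.41 ± 0.13. These 3 are also distal tubule markers of the list above, and Cyp24a1, a target made in other segments too, stood at 0.68 ± 0.65. Spp1, the osteopontin gene, stood at 1.20 ± 0.40 with overlapping groups.

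Among 11 other tested members of Galnt3's own enzyme family, the median was -0.07, and Galnt13 and Galnt10 were higher at an unadjusted p under 0.05. Galnt13 read -4.56, -4.45 and -4.47 in water and -3.62, -4.01 and -3.35 in ethylenediamine, a difference of 0.83 ± 0.17, and Galnt10 stood at 0.42 ± 0.16. The Galnt13 water signals were dim, since the lowest signals well above background on those arrays were -5.51, -5.25 and -5.19. Galnt6 and Galnt7 were well above background on 2 of 3 ethylenediamine arrays. They passed the filter through the water group alone, so their differences are not given. Among those well above background on all 6 arrays the lowest difference was that of Galnt11, -0.15 ± 0.11.

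**Figure D4:**
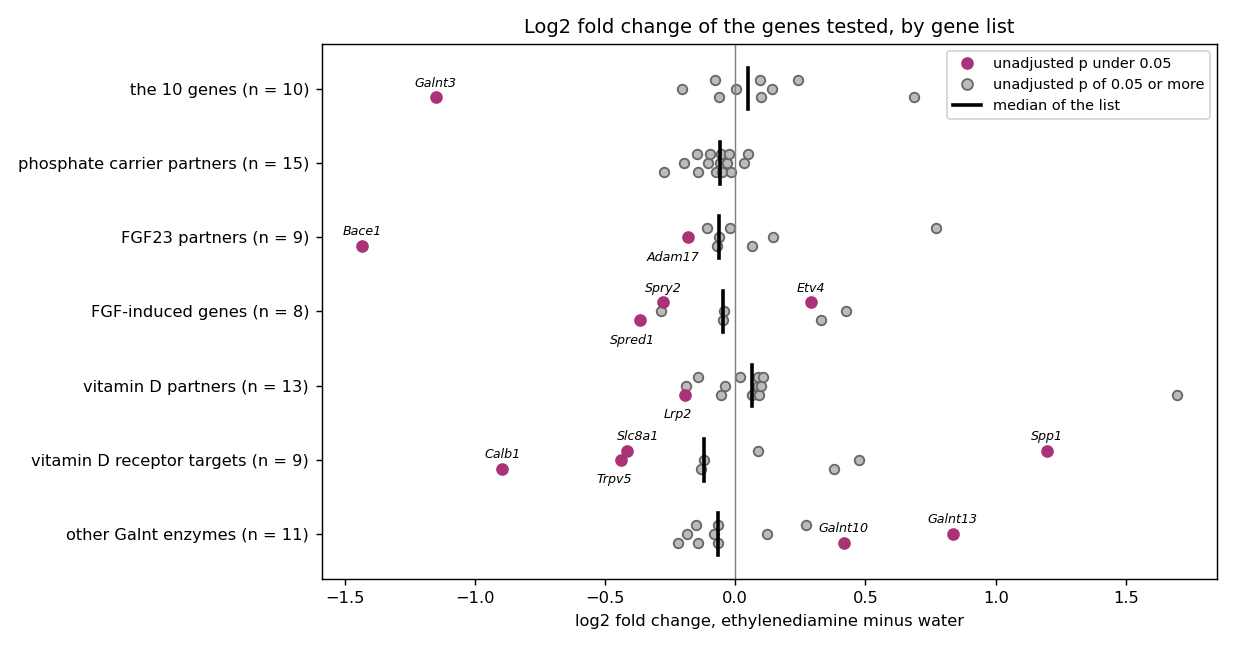
Log2 fold change, ethylenediamine minus water (horizontal axis), of each gene tested, for the 10 genes and 6 related gene lists (rows, n = genes tested), with genes at an unadjusted p under 0.05 named in purple, the others in grey and the list median as a black line. The medians lie between -0.12 and 0.07, and Galnt3 and Bace1 lie below -1, the latter measured on 1 of 3 ethylenediamine arrays.

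The genes whose profile over the 6 arrays was most like that of Galnt3, by the root mean square difference after subtracting each gene's water mean, were Ggt6 (0.31), Rxfp2 (0.35), Ugt2b35 (0.38), Ugt2b37 (0.38) and Abhd3 (0.38). Ugt2b35 read 5.24, 5.51 and 5.27 in water and 4.50, 4.74 and 4.24 in ethylenediamine, and like Galnt3 was highest on water replicate 2. Because it was picked by that profile, the shared high array adds nothing to the likeness. Ggt6 and Rxfp2 were well above background on 2 of 3 ethylenediamine arrays. They passed the filter through the water group alone, so their place among the most alike is a description only.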

How the data were processed

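Per the file headers, the authors' scanner output gives each spot's linear intensity after background subtraction and spatial detrending in Feature Extraction 10.7.1.1 (Agilent), on an rn4 grid, with no scaling across arrays. A deposited table carries that intensity over the array's 75th percentile. Set against the scanner output, 0 of 61515 probes departed by over 2% on any array. Its column medians were 0.105 to 0.110, and it was an alternative.

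Here, log2 intensity minus the array's 75th percentile was used. Control spots (1439) and 22 probes with an outlier flag were left out. RefSeq accessions named 28194 of 61515 probes through GRCr8. Probes well above background on all 3 arrays of a group were kept (37822), and the brightest stood for each of 11530 genes. Of these genes, 5892 had over 1 kept probe. The test was limma 3.58.1 (R 4.3.3), two-sided, with lmFit and eBayes, Benjamini-Hochberg adjustment over all genes and a threshold of 0.05, and was tested on simulated data. For normexp, the median spot signal took the place of the mean, which the files used here lack. The number of arrays limits the precision. Named list genes are the 2 with the smallest p in each list; other list genes and the cell type markers named were added after their values were seen. The members and lists were chosen with earlier results of these data known. A gene among those lowest on water replicate 2 is not reported here.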

Additional observations from a re-analysis of the deposited data

How the results depend on the processing

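The 10 members had 0 genes past the adjusted threshold under all 19 alternatives. Over all genes the count was 1 with an intensity trend, 10 with the slide as a block, 6 within slide 1 and 0 to 1 when each array was left out. Members at an unadjusted p under 0.05 numbered 2 with normexp, median or quantile scaling, the deposited values, the filter on all 6 arrays, the mean of a gene's probes, an intensity trend and array weights, where Kl joined Galnt3, and also by either slide fit (a slide block, or slide 1 alone), where Cyp27b1 did. Leaving out each array gave 1 to 2. Groups did not overlap for 5 members within slide 1, where 1 treated array faces 3 and 55.8% of all genes did not overlap, and for 2 to 4 when each array was left out (26.3% to 33.3% of all genes). Galnt3, Kl, Slc20a1, Fgfr1 and Vdr kept their sign throughout. Slc34a1 turned to -0.0272 with median scaling, -0.0322 with quantile scaling, -0.0341 with the mean of its probes and -0.0526 by either slide fit, and ran from -0.0265 to 0.0350 with each array left out. By either slide fit Slc34a3 turned to 0.0572 and Slc20a2 to 0.0570. With each array left out Cyp24a1 ran from -0.0742 to 1.1005 and Cyp27b1 from -0.15 to 0.51. Same-numbered replicates share only a number, since their deviations correlated at -0.003, 0.022 and -0.008. With the replicate block 0 genes passed by limma (946 at an unadjusted p under 0.05), and Galnt3 stood at -1.15 with an unadjusted p of 0.0124. Signal over background limits the dimmer Galnt3 probe, Bace1, Galnt6, Galnt7, Slc22a7, Ggt6 and Rxfp2.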

Other observations

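On water replicate 2 the Cyp24a1 signal was the 6th farthest below the mean of the other water arrays among 11530 genes. Dusp15, Crygd, Cryga and Hmox1, chosen after their values were seen, were farther below. Dusp15, a phosphatase gene, read 2.80, -3.41 and 3.75 on water replicates 1 to 3 and 3.44, 2.43 and 2.01 on ethylenediamine replicates 1 to 3, so like Cyp24a1 it was low on water replicate 2 alone. Cryga, a crystallin gene, read 3.97, 0.07 and 4.52 in water and 0.67, 0.30 and 1.15 in ethylenediamine, and Crygd had the same high arrays, water replicates 1 and 3. Hmox1, the heme oxygenase gene, read 5.40, -1.72 and -1.36 in water and -1.22, -1.38 and -1.09 in ethylenediamine, so its gap came from a high water replicate 1.

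Among the vitamin D receptor targets, S100g, the small calcium-binding protein of calcium-absorbing cells, also read lowest in water on replicate 2, at 1.49 against 2.00 and 1.90, and highest of all on ethylenediamine replicate 2, at 2.90. Trpv6 read -5.13, -4.62 and -4.38 in water, where replicate 1 was the low array.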
